A study of Saccharomyces cerevisiae with 36 samples.

Results

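The unmodified ZCON designs are a family of 2-chain synthetic proteins that were screened for binding in yeast. Their chains were taken from the protein names of the count matrices, as every name that holds ZCON and none of the endings _cutT, _T with a digit, _LL or _resurf, with the ending _swap dropped. This gave 24 chains, an A and a B chain for each of 12 designs, out of 527 protein names in the whole series and out of 70 chains with ZCON in the name. The remaining 46 ZCON chains carry one of those endings and were left out. "Unmodified" therefore describes the name alone, since the designed amino acid sequences were not used here, and the sources used here do not say what ZCON, re_loop, VR, CC and _swap stand for. The designs are ZCON_13, ZCON_150, ZCON_152, ZCON_154, ZCON_155, ZCON_15_re_loop, ZCON_162, ZCON_2_CC, ZCON_37, ZCON_37_3, ZCON_6 and ZCON_VR_2.

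In a yeast 2-hybrid screen one protein is fused to a DNA-binding domain and the other to an activation domain, and a cell in which the fusions bind each other switches on a reporter gene. Here the reporter is HIS3, which encodes an enzyme of histidine synthesis, so cells with a binding pair can grow in medium without histidine. 3-AT (3-amino-1,2,4-triazole) competes for that enzyme and raises the amount of it a cell needs. Designed heterodimers are chains computed to bind a given partner, usually as a bundle of alpha helices, while binding to copies of themselves or to the chains of other designs is unwanted. A matrix of every chain against every other chain holds all of these cases at once.

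Each chain is identified in the reads by a barcode of 20 bases on its plasmid, and a pair by its 2 barcodes. The barcodes below belong to the chains on which the results turn, read 5′ to 3′ as the deposited barcode lists write them. Capitals mark the positions at which the nearest other barcode of 20 bases in these lists holds a different base, so the capitals show how far a chain is from being misread as another.
A_ZCON_154: TAaCcgTatAcGCctGAttg
B_ZCON_154: ATgGtagTcACATGctccAa
A_ZCON_155: AGGTcCacGCttatAccTAa
B_ZCON_155: ccCGAatatgTgTTaaGaGa
A_ZCON_162: CcCcTGCaAgtGGacgGAat
B_ZCON_162: tCtGAcgtgcgAGagAcAtT
ZCON_VR_2_A: cTGtCgGTgGcAaGtGcaaG
ZCON_VR_2_B: CtAAaGcAtAgTtTCtcgaa
ZCON_152_A: gcaAGAcAGAaAtGaagCgc
ZCON_152_B: ccccCGaCgcCtGCTacATG
B_ZCON_13: atggAtgccTccTTCtGATc
B_ZCON_37: TtgaaaggCcgTCGACCCCt
Across the 24 chains the nearest of the 322 such barcodes was 7 to 11 mismatches away, and the GC content ran from 35% to 70% with a median of 50%. No barcode of these chains stood for a second protein. For 10 chains the lists give the same barcode under 2 names, with and without _swap.

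The chains were present in 10 of the 36 libraries, as 5 library sets with a library before and a library after selection each. All used the same MATa strain, in which the reporter leu2::pGAL6z-HIS3 stood in a his3-delta background beside the markers trp1, ura3-52, leu2-delta200, can1, GAL, prbd1.6R, pep4::BleoMX and AGA1::GAL1-AGA1::URA3. Cells were grown without tryptophan before selection and without tryptophan and histidine for selection. The pool without 3-AT held 218 proteins in 2 biological replicates and lacked ZCON_152, ZCON_2_CC and ZCON_VR_2, so it measured 9 designs. The subset pool held 122 proteins in a single library set, and the DHD pool 337 proteins in 2 biological replicates, both with all 12 designs and with 1 mM 3-AT per the sample descriptions. A growth protocol shared by every sample names 3 mM instead. Between the pool without 3-AT and the others, the 3-AT dose and the make-up of the pool cannot be told apart. The labels name the replicates biological and say no more of them, so p-values measure the spread between these libraries.

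All 4 libraries of the pool without 3-AT carry opposite selection states in their title and in their description. The state used here is the one in the name of the deposited matrix, which follows the title in replicate 1 and the description in replicate 2. If the titles were right throughout, every ratio of replicate 2 of that pool would change its sign, and if the descriptions were right, every ratio of replicate 1 would. In the subset pool the title of the library after selection carries both signs, and its description was used. The matrices of both replicates without 3-AT name all 18 chains with _swap, those of the subset pool and of DHD replicate 1 name 18 of 24 so, and those of DHD replicate 2 none.

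Depth set the precision of each library set. Before and after selection the libraries without 3-AT held 19415591 and 15073370 reads in replicate 1, and 42299031 and 45641171 in replicate 2. The subset pool held 21994913 and 20288936 reads. DHD replicate 1 held 33394129 and 34925075 reads, against 4057624 and 3959528 in replicate 2. Pairs of ZCON chains had a median of 410.5, 890, 1531.5, 222 and 22 reads before selection in these 5 sets in that order, so DHD replicate 2 was by far the shallowest. Every interval of a log2 ratio below is an exact 95% interval from the reads of a pair. These intervals, and the Wilson intervals of read shares, cover counting error only, since the reads are PCR products without molecular identifiers.

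The measure used below is the log2 ratio of a pair's share of reads after selection over its share before, with 1 read added to each count. Pairs with fewer than 10 reads before selection were left out. A pair at 0 kept its share of the library, and in every set most pairs of the matrix lay below 0. A pair is written as row protein with column protein of the matrix, because the sources used here do not say which axis carries the DNA-binding domain. Partner pairs join chains A and B of one design and come in both orders, crossed pairs join chains of different designs, and same-chain pairs hold the same chain on both sides. The 24 chains give 576 ordered pairs, of which 24 are partner and 528 crossed pairs, and the 18 chains without 3-AT give 18 partner and 288 crossed pairs.

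Partner pairs took up a larger part of the reads after selection. Together they held 0.0412% of the reads before selection and 1.04% after it in replicate 1 without 3-AT, and 0.0448% and 0.185% in replicate 2. In the subset pool their share went from 0.237% (Wilson 95% interval 0.235% to 0.239%) to 4.17% (4.16% to 4.18%). In the DHD pool it went from 0.0187% to 0.146% in replicate 1 and from 0.0236% to 0.265% in replicate 2. The share was larger after selection in all 5 sets. Single pairs held much of it: B_ZCON_154 with A_ZCON_154 alone gave 522358 of the 846525 partner reads after selection in the subset pool, and 132854 of 157296 in replicate 1 without 3-AT.

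The median partner pair stood above the median crossed pair in each set. Without 3-AT the medians were -0.99 for partner pairs and -2.31 for crossed pairs in replicate 1, and 0.57 and -0.73 in replicate 2. The subset pool had the widest gap, with -0.23 against -3.45. DHD replicate 1 had -1.26 against -2.77, and DHD replicate 2 -0.94 against -1.82. The differences of 1.32 and 1.30 between the classes in the replicates without 3-AT lay closer together than the 1.51 and 0.88 of the DHD replicates, and the subset pool, at 3.22, has no replicate. Crossed pairs themselves lay near the median of all pairs of the matrix, which was -2.30, -0.77, -3.72, -2.79 and -2.55 in the 5 sets. The largest distance was in DHD replicate 2, where crossed pairs were 0.73 above it. No test was made on these classes, since pairs share chains and are not replicates.

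Partner pairs were spread widely, with some far above 0 and others as low as the bulk of the matrix. Without 3-AT 7 of 18 had a ratio above 0 in replicate 1, against 6.87% of all pairs of that matrix, and 12 of 18 in replicate 2, against 16.7%. The counts were 10 of 22 in the subset pool (5.73% of all pairs), 9 of 24 in DHD replicate 1 (6.24%) and 8 of 20 in DHD replicate 2 (12.5%). Among crossed pairs 18 of 288, 39 of 287, 12 of 505, 23 of 519 and 84 of 445 were above 0, shares of 6.25%, 13.6%, 2.38%, 4.43% and 18.9%. The crossed share was lower than that of all pairs in the first 4 sets, with the widest gap in the subset pool, and higher in DHD replicate 2. The middle 50% of partner pairs reached from -2.90 to 3.02 in DHD replicate 1 and from -3.13 to 2.66 in the subset pool. Partner pairs of all other designs in the same matrices had medians of -1.71, -0.28, -3.20, -2.25 and -2.38, and 30.3%, 44.2%, 29.9%, 33.1% and 22.1% of them were above 0. The corresponding shares of the ZCON partner pairs were 38.9%, 66.7%, 45.5%, 37.5% and 40%, higher in each set, and this difference was not tested. Where a pool held changed forms of the ZCON designs, the class of other designs counts them as designs of their own. It is therefore not a set of unrelated designs.

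Among the unmodified ZCON designs, ZCON_154 had the most values above 0, 9 of 10 over both orders and all sets. It also had the highest single ratio of their partner pairs. As row protein with its A chain, B_ZCON_154 had ratios of 7.68 (95% interval 7.58 to 7.78) and 3.58 without 3-AT, 6.83 (6.79 to 6.87) in the subset pool, and 3.18 and 3.38 in the DHD replicates. Its 4981 reads in the subset pool became 522358, the highest count of any of the 14884 pairs of that matrix. In the opposite order, A_ZCON_154 with B_ZCON_154 had -0.89 and 3.11 without 3-AT, 5.36 in the subset pool, and 6.47 (6.30 to 6.65) and 1.00 in the DHD pool. Every value of the first order was therefore above 0, and the single value below 0 came from replicate 1 without 3-AT, where 433 reads became 181.

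ZCON_155 was above 0 in every set in one order. A_ZCON_155 with B_ZCON_155 stood at 3.70 and 3.15 without 3-AT, 2.81 in the subset pool and 4.07 and 1.36 in the DHD pool, with the lowest bound of any interval at 0.61. In DHD replicate 2 B_ZCON_155 as column was above 0 with 39.9% of the proteins of other designs and with 8 of 13 ZCON chains. For that column the partner ranked 33 of 200 in the pool and 4 of 15 among ZCON chains. For A_ZCON_155 as row it ranked 4 of 325 and 1 of 24. B_ZCON_155 with A_ZCON_155 went from 3.13 and 1.79 without 3-AT to 0.00 in the subset pool (-0.12 to 0.13) and to -3.72 and -4.94 in the DHD replicates, where 125 reads became 9 and 62 became 1. The A row was the higher order in all 5 sets, by 0.57 to 7.79.

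ZCON_162 had 8 of 10 values above 0. A_ZCON_162 with B_ZCON_162 had 5.46 and 2.56 without 3-AT, 3.996 in the subset pool, 3.41 in DHD replicate 1 and -1.19 in DHD replicate 2. B_ZCON_162 with A_ZCON_162 had 3.95, 2.25, 5.03, 4.97 and -2.55 in the same sets. Both values below 0 came from DHD replicate 2, where 13 reads became 5 and 11 became 1, and their intervals of -3.18 to 0.24 and -8.85 to -0.64 are wide. In all 5 sets the orders stayed within 1.56 of each other, while the gap reached 8.56 in ZCON_154 and 7.79 in ZCON_155.

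Of the 3 designs found only in the pools with 3-AT, ZCON_VR_2 and ZCON_152 had ratios above 0 and ZCON_2_CC did not. ZCON_VR_2_A with ZCON_VR_2_B stood at -0.13 in the subset pool (-0.31 to 0.05), at 3.36 in DHD replicate 1 and at 6.83 in DHD replicate 2, where 56 reads became 6320. ZCON_VR_2_B with ZCON_VR_2_A had 0.63, -0.16 (-0.43 to 0.10) and 5.84. Replicate 2 of the DHD pool thus held the highest ratio of this design in both orders, while the pair kept roughly its share in the subset pool.

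ZCON_152_A with ZCON_152_B was above 0 in all 3 sets, at 1.15, 2.97 and 1.82. In DHD replicate 2 this chain as row was above 0 with 61.6% of the proteins of other designs and with 17 of 21 ZCON chains of other designs, and the partner ranked 96 of 308 in the pool and 8 of 22 among ZCON chains. The opposite order, ZCON_152_B with ZCON_152_A, had 2.23 in the subset pool and -2.97 in DHD replicate 1, where 89 reads became 11, and too few reads in DHD replicate 2 (1 before, 0 after). ZCON_2_CC_B with ZCON_2_CC_A had -3.94, -3.15 and -0.58. ZCON_2_CC_A with ZCON_2_CC_B was measured only in DHD replicate 1, where its 87 reads became 0, at least 30.3-fold lower against a floor of 3 reads in that library. None of the 4 ratios of ZCON_2_CC was above 0.

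ZCON_13 and ZCON_15_re_loop gave mixed values. A_ZCON_13 with B_ZCON_13 had 1.86 and 2.42 without 3-AT, -0.33 in the subset pool and 0.90 in DHD replicate 1, and a single read in DHD replicate 2. B_ZCON_13 with A_ZCON_13 had -0.36 and 2.22 without 3-AT, -3.26 in the subset pool, and 0.02 (-0.58 to 0.64) and -2.29 in the DHD pool. In the 4 sets that measured both orders, the A row was the higher one each time, by 0.20 to 2.93.

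For ZCON_15_re_loop the B row was the higher one in all 5 sets. A_ZCON_15_re_loop with B_ZCON_15_re_loop had -2.01, 0.41, -2.60, -1.03 and -0.78 in the order of the sets above, and B_ZCON_15_re_loop with A_ZCON_15_re_loop had -1.49, 0.72, -0.87, -0.73 and 2.51. Although 7 of its 10 values lay below 0, both orders stood above the median of all pairs in every set, at the 61.9th to the 97.8th percentile.

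The other 4 designs had few ratios above 0. ZCON_37_3 had no ratio above 0 among 8 and a median of -2.13. ZCON_150 had 1 above 0 among 10 and a median of -3.02, the exception being B_ZCON_150 with A_ZCON_150 in DHD replicate 2 (228 reads became 726, a ratio of 1.70), which stood at -3.53 in DHD replicate 1. ZCON_37 had 2 of 10 above 0, both for A_ZCON_37 with B_ZCON_37 without 3-AT, at 0.04 (-0.23 to 0.31) and 0.41, while its 10 values ran from the 40.3rd to the 93.2nd percentile of all pairs. ZCON_6 also had 2 of 10: A_ZCON_6 with B_ZCON_6 reached 3.28 in the subset pool, where 1328 reads became 11900, and lay between -4.17 and -0.94 in the other 4 sets.

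The ratio of a design differed between its orders by amounts that varied between replicates. The median absolute difference between the orders of a design was 1.25 and 0.34 in the replicates without 3-AT, 1.64 in the subset pool and 1.94 and 2.73 in the DHD replicates. The largest single gap was 8.56, for ZCON_154 in replicate 1 without 3-AT, and the largest in replicate 2 was 1.36. Chain A as row was the higher order in 5 of 9, 6 of 9, 5 of 10, 8 of 12 and 4 of 8 designs, so neither chain letter had the higher readout throughout. Within a design the direction repeated in all 5 sets for ZCON_155, ZCON_37 and ZCON_15_re_loop, while for ZCON_154 the A row was higher only in DHD replicate 1, by 3.29, and the gaps without 3-AT were 8.56 and 0.47.

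Chains did not always rank their designed partner first. Among the other ZCON chains and itself, the partner had the highest ratio in 13 of 36 rankings in each replicate without 3-AT, counting every chain as row and as column protein. It was first in 16 of 44 rankings in the subset pool, in 12 of 48 in DHD replicate 1 and in 10 of 40 in DHD replicate 2. The median rank of the partner was 2 of 18 without 3-AT, 2 of 23 in the subset pool, and 4 of 24 and 5 of 22 in the DHD pool. Against every protein of the pool the partner was first in 3, 3, 3, 1 and 2 rankings. B_ZCON_154 was the best row protein for A_ZCON_154 in both replicates without 3-AT and in the subset pool, out of 216, 218 and 116 row proteins. In the DHD replicates it ranked 9 of 336 and 3 of 332. For B_ZCON_154 as row, A_ZCON_154 ranked 1 of 197, 5 of 211, 1 of 107, 22 of 333 and 32 of 312 in the 5 sets.

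Where the partner was not first, the leading protein was at times a changed form of the same design. For A_ZCON_154 as column in DHD replicate 2 it was ZCON_154_resurf_B, at 5.22 against 3.38 for the partner. For B_ZCON_154 as column in the subset pool it was ZCON_154_resurf_A, at 6.30 against 5.36. A_ZCON_155 as row in the subset pool had its highest ratio with ZCON_155_resurf_B, 3.78 against 2.81.

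Requiring a ratio above 0 in every replicate of a pool left few crossed pairs and a larger part of the partner pairs. Without 3-AT 7 of 18 partner pairs met this in both replicates, and 8 of 287 crossed pairs, against 4.32% of all pairs. In the DHD pool 5 of 20 partner pairs met it, and 9 of 445 crossed pairs, against 2.06%. Over the subset pool and both DHD replicates it held for 4 of 19 partner pairs (both orders of ZCON_154, A_ZCON_155 with B_ZCON_155 and ZCON_152_A with ZCON_152_B) and for 3 of 438 crossed pairs, against 1.84%. In all 5 sets 2 of 15 partner pairs stayed above 0, B_ZCON_154 with A_ZCON_154 and A_ZCON_155 with B_ZCON_155, and 1 of 252 crossed pairs. Only ZCON chains were compared over all 5 sets (1.08% of 277 pairs), so that share is no outside background.

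The crossed pairs above 0 in every replicate were no more frequent than such pairs in the whole matrices, so their make-up is given as a description. Of the 8 without 3-AT, 5 joined B with B, 3 joined A with B and 0 joined A with A, and 4 held B_ZCON_154. Of the 9 in the DHD pool, 6 joined B with B, 2 A with B and 1 A with A, 4 held B_ZCON_154, and 5 were also among the 8 without 3-AT. Over all crossed pairs, B with B pairs were above 0 in 15.3%, 25.4%, 4.13%, 7.75% and 31% of cases in the 5 sets, and A with A pairs in 1.39%, 1.39%, 1.53%, 3.03% and 13.5%. The share was higher for B with B in each set, and this difference was not tested.

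B_ZCON_154 with ZCON_152_B was the crossed pair with the highest mean in the DHD pool. It had 4.31 (4.25 to 4.37) in the subset pool, 4.93 (4.75 to 5.14) in DHD replicate 1 and 5.07 (4.38 to 6.09) in DHD replicate 2, where 13 reads became 457. With ZCON_152_B as column as well, its own A chain had the lower ratios of 1.15, 2.97 and 1.82. In the opposite order, ZCON_152_B with B_ZCON_154 had 2.24 and 5.96 in the subset pool and in DHD replicate 1, and -3.05 in DHD replicate 2, where 33 reads became 3.

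B_ZCON_37 with B_ZCON_13 was the crossed pair above 0 in all 5 sets. Its ratios were 1.05 and 2.11 without 3-AT, 0.91 in the subset pool and 0.84 and 0.54 in the DHD pool, and the first rests on 17 reads before selection. The opposite order, B_ZCON_13 with B_ZCON_37, had -0.57, 2.56, -4.06, -1.30 and 3.28. B_ZCON_13 also paired with ZCON_152_B in the 3 sets that hold it, at 1.06, 2.16 and 1.82, and the opposite order had -1.99, 4.31 and -2.42.

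Chains of ZCON_15_re_loop recurred with B_ZCON_154. B_ZCON_154 with B_ZCON_15_re_loop had 0.45 and 3.30 without 3-AT, -0.94 in the subset pool and 0.65 and 2.25 in the DHD pool. B_ZCON_15_re_loop with B_ZCON_154 had 0.10, 2.10, -1.50, 0.47 and 1.51, so both orders were above 0 in the same 4 sets. B_ZCON_154 with A_ZCON_15_re_loop had 0.91, 2.82, -2.87, 0.07 and 1.90. As row, B_ZCON_154 was above 0 with 7 of 16, 6 of 15, 1 of 20, 3 of 22 and 15 of 19 ZCON chains of other designs. Its median over these chains was 1.12 in DHD replicate 2, so positive ratios there were not particular to ZCON_15_re_loop.

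Other crossed pairs had large ratios in a single set. A_ZCON_37_3 with A_ZCON_155 reached 5.04 in replicate 1 without 3-AT, where 339 reads became 8663, and had -1.11, -4.57, -4.06 and -5.17 in the other 4 sets. B_ZCON_162 with B_ZCON_155 reached 6.11 in DHD replicate 1, where 54 reads became 3978, had -2.74 and 0.63 without 3-AT and -2.70 in the subset pool, and had too few reads in DHD replicate 2. ZCON_VR_2_A with A_ZCON_15_re_loop had 4.39 in the subset pool, from 3076 to 59667 reads, but -2.67 in DHD replicate 1 and 0.63 in DHD replicate 2.

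Same-chain pairs with ratios above 0 numbered 0 of 15, 3 of 16, 2 of 20, 0 of 19 and 3 of 13 in the 5 sets. These shares were 0%, 18.8%, 10%, 0% and 23.1%, against 6.87%, 16.7%, 5.73%, 6.24% and 12.5% of all pairs. The ZCON share was thus lower in replicate 1 without 3-AT and in DHD replicate 1, and higher in the other sets. Same-chain pairs of all proteins had 9.87%, 16.3%, 9.41%, 6.42% and 16.8%. No ZCON same-chain pair was above 0 in every replicate of a pool with 2 replicates. ZCON_152_A with itself had 6.12 in the subset pool (6.04 to 6.20), where 1283 reads became 82285, a ratio passed among the ZCON pairs of that set only by B_ZCON_154 with A_ZCON_154. In DHD replicate 1 the same pair had -3.33, with 76 reads before and 7 after, and in DHD replicate 2 it had 7 reads before selection, too few for a ratio.

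Some chains had raised ratios with many proteins, not with their partner alone. B_ZCON_154 as row protein had the highest median of the family over partners from other designs, taken as the mean of the replicates, without 3-AT and in the DHD pool. Within the DHD replicates ZCON_VR_2_A as row was higher in replicate 1 (-1.95) and ZCON_152_A as row in replicate 2 (0.65). In the subset pool ZCON_VR_2_A as row came first, at -2.05, with B_ZCON_154 next at -2.34. The median of B_ZCON_154 as row was -0.80 over 195 column proteins in replicate 1 without 3-AT, the 2nd highest of 218 row proteins, with 32.8% of them above 0. In replicate 2 it was -0.27, the 12th highest. In the DHD pool it ranked 11th of 337 in replicate 1 (-2.12, 14.8% above 0) and 6th in replicate 2 (0.37, 57.1% above 0). The ratio with its own A chain, given above, lay above this median in each set.

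The chain-wide levels of several chains differed between the DHD replicates. ZCON_152_A as row had a median of -2.72 and rank 105 of 337 in replicate 1, and 0.65 and rank 3 in replicate 2, where 61.6% of its partners were above 0. ZCON_VR_2_A as column had -4.23 and rank 334 in replicate 1, and 0.15 and rank 11 in replicate 2, with 54.4% above 0. The reads of these chains before selection were 125199 and 14613 for ZCON_152_A as row, and 50550 and 8448 for ZCON_VR_2_A as column. The ratio of 6.83 for ZCON_VR_2_A with ZCON_VR_2_B in replicate 2 has ZCON_VR_2_A in the row, where the chain's median was -0.33 in that set and -1.95 in replicate 1. Its 5.84 in the opposite order has it in the column. B_ZCON_15_re_loop as row went from -2.75 and rank 123 to -0.15 and rank 14, with 47.7% above 0. Its 2.51 with A_ZCON_15_re_loop in replicate 2 ranked 41 of 304 in the pool and 2 of 21 among ZCON chains. As columns, ZCON_2_CC_B went from rank 331 to 75 and A_ZCON_155 from rank 207 to 323, the latter being the column of B_ZCON_155 with A_ZCON_155. The part of these chain-wide levels in the results was not tested.

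In edgeR's quasi-likelihood test over the whole matrices, no ZCON pair passed an adjusted p of 0.05 in either pool. That fit left out the pairing of libraries by replicate, and the fit with the replicate as a block, given below, used it. In the DHD pool 0 of 110004 pairs passed in either direction (0%), and at an unadjusted p under 0.05 the test named 3849 higher after selection (3.5%) and 3495 lower (3.18%). At that level 3 of the 24 ZCON partner pairs were higher and none lower, and among 511 crossed pairs 20 were higher with 5 lower. Of 17 same-chain pairs 4 were higher and 0 lower, those of B_ZCON_154, B_ZCON_15_re_loop, ZCON_2_CC_B and ZCON_VR_2_A. By library totals, 0 of 19 ZCON same-chain ratios were above 0 in DHD replicate 1, with a highest value of -1.17. In the shallow replicate 2 it was 3 of 13, so these 4 were not seen above 0 in both replicates. A_ZCON_155 with B_ZCON_155 had an edgeR log2 change of 5.55 with an SE of 2.54 (2 libraries before and 2 after selection, adjusted p = 0.665). B_ZCON_15_re_loop with A_ZCON_15_re_loop had 3.74 with an SE of 1.67 (adjusted p = 0.665 in edgeR), and A_ZCON_13 with B_ZCON_13 was the third. These changes are scaled by TMM factors: the median partner pair had 1.25 and the median crossed pair 0.23 in this fit, against -0.98 and -2.05 with library totals alone. Leaving out the library after selection of replicate 1 gave 81 called ZCON pairs of 552 (75 higher), where 7.6% of all pairs were called higher and 1.82% lower. Leaving out that of replicate 2 gave 31 (28 higher), against 6.23% and 0.459%. In such a fit the single library left after selection is assumed to vary like the libraries before selection.

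Without 3-AT 0 of 46445 pairs passed in edgeR (0%), while the unadjusted p was under 0.05 for 1408 higher pairs (3.03%) and for 2 lower ones (0.00431%). Both orders of ZCON_13, ZCON_155 and ZCON_162 made up the 6 of 18 partner pairs that were higher at that level, and 5 of 288 crossed pairs were higher. A_ZCON_162 with B_ZCON_162 had an edgeR log2 change of 6.37 with an SE of 2.46, and B_ZCON_13 with A_ZCON_13 had 2.31 with an SE of 0.69, both with an adjusted p of 1. With the replicate as a block, edgeR called 418 pairs higher over the whole matrix (0.9%), and 2 of the ZCON pairs, both crossed. These were B_ZCON_154 with A_ZCON_15_re_loop (block log2 change 3.31, adjusted p = 0.0357 in edgeR) and B_ZCON_37 with B_ZCON_13 (3.01, adjusted p = 0.02). The lowest adjusted p of a partner pair in that fit was 0.0548, for B_ZCON_13 with A_ZCON_13. In the DHD pool the block called none. Without the library after selection of replicate 2 of the pool without 3-AT, edgeR called 10 of 322 ZCON pairs higher, 5 of them partner pairs, against 2.49% of all pairs, on the same assumption.

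DESeq2, with a different estimate of the spread, named more pairs. It gave an adjusted p to 162 of 552 ZCON pairs in the DHD pool and called 48 of them higher (29.6%), a share near the 29.7% of all 26828 pairs with an adjusted p. By class, 9 of 13 partner pairs, 35 of 142 crossed pairs and 4 of 7 same-chain pairs with an adjusted p were higher. The 4 are the same-chain pairs named above, with the limit given there. DESeq2 gives an adjusted p only to pairs that pass a filter on mean reads over all libraries of the fit. Reads after selection enter that mean, so these shares are not independent of the selection. Over all pairs tested, 9 of 24 partner, 35 of 511 crossed and 4 of 17 same-chain pairs were called higher, against 7961 of 110004. In the DHD pool DESeq2 gave its smallest adjusted p among partner pairs to ZCON_VR_2_A with ZCON_VR_2_B (log2 change 8.18, DESeq2 adjusted p = 1.39e-05). Without 3-AT 78 of 322 ZCON pairs had an adjusted p and 17 were called higher (21.8%), against 20.7% of 9526 pairs. These were 8 of 10 partner pairs, 9 of 65 crossed pairs and 0 of 3 same-chain pairs, with B_ZCON_154 with A_ZCON_154 first (8.88, DESeq2 adjusted p = 9.25e-07). Over all pairs tested without 3-AT, they were 8 of 18 partner, 9 of 288 crossed and 0 of 16 same-chain pairs, against 1975 of 46445.

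How closely the ratios of the pairs followed each other between library sets differed between the classes. Over partner pairs Pearson's r between the replicates without 3-AT was 0.81 (18 pairs), between the subset pool and DHD replicate 1 it was 0.71 (22 pairs), and between the DHD replicates 0.43 (20 pairs). DHD replicate 2 had the lowest values with the remaining sets, from 0.16 to 0.40. Over crossed pairs r lay between 0.08 and 0.31 for every combination of sets, over 257 to 504 pairs. These values describe the pairs, which share chains and libraries, and carry no test.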

How the data were processed

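Barcode pairs were sequenced from yeast before and after growth selection, and 10 of the 36 libraries hold unmodified ZCON chains. The deposited files are square matrices of whole-number read counts per ordered protein pair, and per the submitters' processing notes DESeq2 was used on the study's counts. Its version, the alignment and the matching of barcodes are not stated in the sources used here. Names were read without _swap, and empty cells were taken as 0. The members, lists and naming rule were chosen with earlier results of these data known. Named pairs were, per pool, the partner and crossed pairs with the highest mean ratio among those above 0 in every library set, the lowest partner pairs, called pairs, same-chain pairs likewise, and the chains with the highest medians. Designs measured in every set were given in full, and crossed pairs with a high value in 1 set, changed forms and opposite orders were named after their values were seen.

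Python 3.11.15 (scipy 1.17.1, pandas 2.3.3, numpy 2.4.6) gave the ratios and their exact intervals. The quasi-likelihood fit used edgeR 4.0.16 and limma 3.58.1 under R 4.3.3, with TMM factors and robust estimation of the spread, over all pairs of a matrix that averaged at least 10 reads per library. It compared 2 replicates per group, adjusted p-values by Benjamini-Hochberg over all pairs, and was tested on simulated data. SE is the absolute log2 change over the square root of its F statistic. The subset pool has 1 library per state and no test. DESeq2 1.42.0, other scalings, filters, pseudocounts, read minimums, the replicate block, left-out libraries and, chosen after seeing the data, the selection states of titles and of descriptions were the alternatives. The labels put same-numbered libraries before and after selection in 1 library set, which makes the replicate number a true pairing. The main fit did not use this pairing, and only the replicate block did. The deviations of same-numbered libraries from the group means correlated with 0.326 in the DHD pool and 0.741 without 3-AT.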

Additional observations from a re-analysis of the deposited data

Results flagged for a closer look

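Of the 16 partner pairs with ratios in both replicates of both pools, 2 were above 0 in both replicates without 3-AT and below 0 in both DHD replicates. This difference between pools was not tested. The share of all pairs with such a change of sign was not computed, so the count is no result about ZCON pairs. In the whole matrices 4.32% of pairs were above 0 in both replicates without 3-AT, and 2.06% in both DHD replicates. B_ZCON_155 with A_ZCON_155 had a mean log2 ratio of 2.46 without 3-AT and -4.33 in the DHD pool, a difference of -6.79. A_ZCON_37 with B_ZCON_37 had 0.23 and -1.99, a difference of -2.22. The second sign depends on the scaling, since the edgeR changes of that pair with TMM factors were 1.92 without 3-AT and 0.42 in the DHD pool, both above 0. The median of all pairs was also higher without 3-AT, at -2.30 and -0.77, than in the DHD pool, at -2.79 and -2.55. The selection state without 3-AT rests on labels that contradict each other, and the 3-AT dose, the make-up of the pool and the depth cannot be told apart between these pools.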

How the results depend on the processing

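With edgeR 0 ZCON pairs were called in either pool with library sizes alone, without a filter or with a filter at 50 reads per library. DESeq2 called 48 in the DHD pool and 17 without 3-AT. The replicate block called 0 in the DHD pool and 2 without 3-AT. Leaving out 1 library gave 0 to 81 calls in the DHD pool and 0 to 10 without 3-AT, and the cause was not tested. With the states of the titles or of the descriptions 0 pairs were called without 3-AT, and 5 or 13 of 18 partner pairs changed sign. Library sizes alone turned the sign of 7 of 24 partner changes in the DHD pool and 6 of 18 without 3-AT.

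Centring on the median of all pairs raised the partner medians to 1.31 and 1.34 without 3-AT, 3.48 in the subset pool, and 1.52 and 1.61 in the DHD replicates. A minimum of 50 reads gave partner medians of -1.50 in DHD replicate 1 and 1.35 in DHD replicate 2 (6 pairs left), and a minimum of 200 reads gave 1.70 in the latter (1 pair). Leaving out names with _swap gave -1.57 over 6 pairs in DHD replicate 1, and no value without 3-AT, where every chain has that ending. The difference between partner and crossed medians kept its sign under these pseudocounts, read minimums and choices of crossed pairs. The other readings of the selection state reverse the ratios of replicate 2 (titles) or replicate 1 (descriptions) without 3-AT, and with them its difference. In the fit over both replicates, the states of the titles gave medians without 3-AT of 0.24 for partner and -0.09 for crossed pairs. Those of the descriptions gave -0.24 and 0.09, so only they put the partner median below the crossed median. In replicate 1 without 3-AT the difference was 1.24 with a pseudocount of 5 and 1.35 with a minimum of 50 or 200 reads. Against crossed A with B pairs only it was 1.33. Replicate 2 gave 1.29 with a pseudocount of 5 and 1.31 against crossed A with B pairs. In DHD replicate 2 a minimum of 50 and of 200 reads gave 3.48 and 6.11, on the few pairs named above. Depth limits that replicate most, where 4 of 24 partner pairs had fewer than 10 reads before selection.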

Other observations

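Before selection, same-chain pairs were rarer than the reads of their row and column would give. The median log2 of observed over expected reads of the ZCON same-chain pairs was -2.41 and -2.05 in the replicates without 3-AT, -0.98 in the subset pool, and -1.38 and -0.82 in the DHD replicates. Partner pairs had -0.20, -0.18, -0.01, -0.12 and -0.08 in these sets, and crossed pairs -0.15, -0.19, -0.13, -0.12 and -0.10. The same-chain pairs of all proteins in each matrix had -2.24, -1.87, -1.84, -0.97 and -0.66, so the low counts were not limited to ZCON chains. As a result 3 of 18, 2 of 18, 4 of 24, 5 of 24 and 11 of 24 ZCON same-chain pairs had fewer than 10 reads before selection and gave no ratio.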
